A study of Mus musculus with 4 samples.

Results

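Tshz1, Tshz2 and Tshz3, the mouse teashirt zinc finger homeobox genes, and the long intergenic noncoding RNA A830009L08Rik are 4 of the 31053 genes in single-cell count tables of the ventromedial prefrontal cortex (vmPFC). They were listed by name and selected on measured values of these data: in the corticothalamic-type L6-Syt6 neurons, Tshz2 and A830009L08Rik were lowest in the neurons that carried most viral barcode molecules. The L6-Syt6 contrast between barcode-high and barcode-zero neurons, and the levels by subtype, are therefore given as descriptions. The L6-Syt6 contrast was fitted across all genes to give the background and the gene lists, but no p is given for the members there, and the members were tested in the other subtypes and within the barcode-zero neurons.

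MERGE-seq reads the projection targets and the transcriptome of single neurons together. Retrograde rAAV2-retro viruses, each encoding EGFP and a barcode specific to 1 of 5 targets (agranular insula, dorsomedial striatum, mediodorsal thalamus, basolateral amygdala and lateral hypothalamus), were injected into male C57BL/6 mice aged 8 weeks, and axon terminals take up the virus and carry it to the cell body. Dissociated vmPFC cells were sequenced with a 10x Genomics 3′ kit as 3 unsorted libraries of 1 mouse each and a sorted library, for which EGFP-positive cells of 3 mice were pooled. All mice carried all viruses, so no library is free of virus, and a neuron without barcode molecules can be one that projects elsewhere, was not reached by virus, or was labelled and missed at its depth. The deposited annotation holds 9368 excitatory neurons in 7 subtypes. A feature named barcode in the count tables was taken as the summed viral barcode, which was not tested, and it does not say which target a neuron projects to. Neurons with 5 or more unique molecular identifiers (UMIs) of this feature are called barcode-high and neurons with 0 barcode-zero.

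Teashirt proteins are zinc finger transcription factors, named after the Drosophila gene that patterns the trunk, and they act mostly as repressors with corepressors of the CtBP family. TSHZ3 takes part in the development of cortical projection neurons, TSHZ1 in olfactory bulb interneurons, and Tshz2 is a marker of near-projecting neurons of deep cortical layers, which send few axons beyond the cortex. Corticothalamic neurons of layer 6, the class that L6-Syt6 belongs to, send axons to the thalamus. No function of A830009L08Rik is given here.

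On GRCm38 with the GENCODE vM21 annotation, Tshz2 (ENSMUSG00000047907) spans chr2:169633013-170071816 on the plus strand with up to 3 exons per transcript. A830009L08Rik (ENSMUSG00000097182) spans chr13:91368990-91388085 on the minus strand with 3 exons and is annotated as a lincRNA, and Tshz3 (ENSMUSG00000021217) spans chr7:36698118-36773553 on the plus strand with up to 2 exons. Antisense genes lie within Tshz2, and the same-strand gene Gm29540 lies within A830009L08Rik, so that reads of the latter pair could be split by the counting. The transcripts of the 4 members shared 0 sequences of 31 bases, so reads of 1 member could not be taken for another over such a stretch. The 250 bases before the RefSeq start (GRCm38.p6) of Tshz2 and A830009L08Rik, are shown because this pair was lowest in barcode-high L6-Syt6 neurons. Capitals mark the motif matches found in a search of both strands for the GC box GGGCGG, the TATA box TATAAA, the E-box CANNTG and the CRE TGACGTCA.
Tshz2, chr2:169632259-169632508, plus strand: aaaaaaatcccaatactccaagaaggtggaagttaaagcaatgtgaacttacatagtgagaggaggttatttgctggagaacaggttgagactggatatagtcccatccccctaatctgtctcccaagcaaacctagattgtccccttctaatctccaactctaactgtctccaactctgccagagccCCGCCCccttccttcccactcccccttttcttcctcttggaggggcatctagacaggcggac
A830009L08Rik, chr13:91388086-91388335, minus strand: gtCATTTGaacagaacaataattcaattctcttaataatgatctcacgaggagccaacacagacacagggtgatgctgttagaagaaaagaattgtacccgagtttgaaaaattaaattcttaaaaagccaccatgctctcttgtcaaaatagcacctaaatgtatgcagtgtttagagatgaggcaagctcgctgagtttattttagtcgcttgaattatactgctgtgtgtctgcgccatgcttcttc
The window of Tshz2 held 1 GC box, read on the other strand, and 48.8% G or C, and that of A830009L08Rik held 1 E-box and 38.4% G or C. The window of Tshz3 held 2 GC boxes and 74% G or C. Over 32851 promoter windows of the same length, 32.7% held a GC box, 12.4% a TATA box, 66.2% an E-box and 1.55% a CRE, with a median of 52.4% G or C. A match is a description of the letters and not a binding site.

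The unsorted libraries held 7243 to 8040 cell barcodes and 2463 to 2816 of the annotated neurons, with a median of 21362 to 23213 UMIs per neuron, and the sorted library held 2075 cell barcodes and 1603 neurons at a median of 31670 UMIs. Pairs of libraries shared 5 to 30 cell barcodes, of which 0 to 4 belonged to annotated neurons. Levels are CPM, the UMIs of a gene summed over the cells of a group in a library and scaled to a fixed total, as mean ± SD over the 3 unsorted libraries. They are compared between cell groups for 1 gene and not between genes. The labelled subtypes matched their fixed markers in most cases: L6-Syt6 had the highest summed Syt6 and Foxp2 and L5-Htr2c the highest Htr2c, while the corticothalamic marker Tle4 was higher in L5-Htr2c (275.1 CPM) than in L6-Syt6 (244.9 CPM), the corticothalamic markers Ntsr1 and Sulf1 were higher in L6-Npy than in L6-Syt6, and Stac of the near-projecting list had no UMI in L5-Htr2c.

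Tshz2 was concentrated in L5-Htr2c, the near-projecting subtype. Its level there was 1066 to 1154 CPM in the 3 unsorted libraries (1110 ± 44.0, SD, n = 3), 102.6 times that of the next subtype, L6-Syt6, at 10.8 ± 2.29 CPM. L5-S100b followed at 5.76 ± 2.74 CPM, and L5-Bcl6, L2/3-Rorb, L6-Npy and L2/3-Calb1 lay between 0.514 and 1.78 CPM with overlapping ranges between neighbours. Outside the excitatory neurons, endothelial-like cells, which line vessels, had 242 ± 11.7 CPM and oligodendrocyte precursor-like cells, the progenitors of myelinating glia, had 130.3 ± 9.52 CPM. These 3 highest groups did not overlap between libraries. Mural-like cells (29.4 ± 14.8 CPM), astrocyte-like cells (10.9 ± 6.87 CPM) and L6-Syt6 neurons overlapped in neighbouring pairs.

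The share of cells with a Tshz2 UMI followed the levels only in part when every cell was thinned to 2000 UMIs. It was 84.7% ± 2.21 in L5-Htr2c and 36.6% in endothelial-like cells, 2.22% ± 0.180 in L6-Syt6 and 1.20% ± 0.278 in L5-S100b. Astrocyte-like cells, at 10.9 CPM, had 0.701%. MGE-type inhibitory-like cells, interneurons of the medial ganglionic eminence, had 2.27% at 7.88 CPM. Microglia-like cells, taken as a class that should lack the gene although they held 4.18 CPM, gave 0.516%, and oligodendrocyte-like cells 0.370%. The shares of 0.784% in L2/3-Rorb, 0.30% in L2/3-Calb1, 0.121% in L6-Npy and 0% in L5-Bcl6 were near or below these and are read as background.

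Tshz1 had another order. Its highest levels were in oligodendrocyte precursor-like cells (109 ± 2.03 CPM) and endothelial-like cells (100.5 ± 13.0 CPM), whose ranges overlapped, and then in CGE-type inhibitory-like cells, interneurons born in the caudal ganglionic eminence (67.3 ± 8.46 CPM). MGE-type inhibitory-like cells, from the medial eminence, had 13.9 ± 3.09 CPM. Among the excitatory subtypes Tshz1 was highest in L2/3-Rorb (41.4 ± 2.36 CPM) and next in L5-S100b (19.8 ± 1.44 CPM), without overlap between the ranges. L5-Htr2c, where Tshz2 was highest, had the lowest Tshz1 level, 4.18 ± 1.81 CPM or 9.90 times below L2/3-Rorb, and its range overlapped that of L5-Bcl6 (5.56 ± 0.548 CPM).

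Tshz3 was the most even member among the excitatory subtypes, with 1.91 times between the highest, L5-Htr2c at 87.7 ± 9.02 CPM, and the lowest, L6-Npy at 46.0 ± 2.18 CPM. L5-Htr2c, MGE-type inhibitory-like cells (83.6 ± 4.74 CPM), L2/3-Rorb (80.2 ± 2.96 CPM) and L5-S100b (70.8 ± 6.99 CPM) overlapped in neighbouring pairs. A gap without overlap separated L5-S100b from L5-Bcl6 (54.4 ± 3.19 CPM), and another separated L6-Npy from the non-neuronal classes, of which oligodendrocyte precursor-like cells were highest at 31.5 ± 1.35 CPM. CGE-type inhibitory-like cells had 18.5 ± 2.78 CPM, so that the interneuron class high in Tshz1 was low in Tshz3 and the other one the reverse. Oligodendrocyte-like and microglia-like cells had 3.82 and 1.75 CPM.

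A830009L08Rik was highest in upper-layer excitatory neurons. Its level was 26.1 ± 0.452 CPM in L2/3-Calb1, 20.6 ± 0.979 CPM in L2/3-Rorb and 16.6 ± 5.13 CPM in L5-Htr2c, and the last pair overlapped. L5-S100b (10.3 ± 0.842 CPM) and L6-Syt6 (9.46 ± 1.10 CPM) overlapped, and L6-Npy was the lowest subtype at 3.18 ± 0.558 CPM, near MGE-type inhibitory-like cells at 4.15 ± 1.61 CPM. The non-neuronal classes had 0.170 to 1.23 CPM, from 1 to 5 UMIs in each class over the 3 libraries. Thinned to 2000 UMIs, 2.27% of L6-Syt6 neurons and 0.147% of microglia-like cells had a UMI of it.

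**Figure D1:**
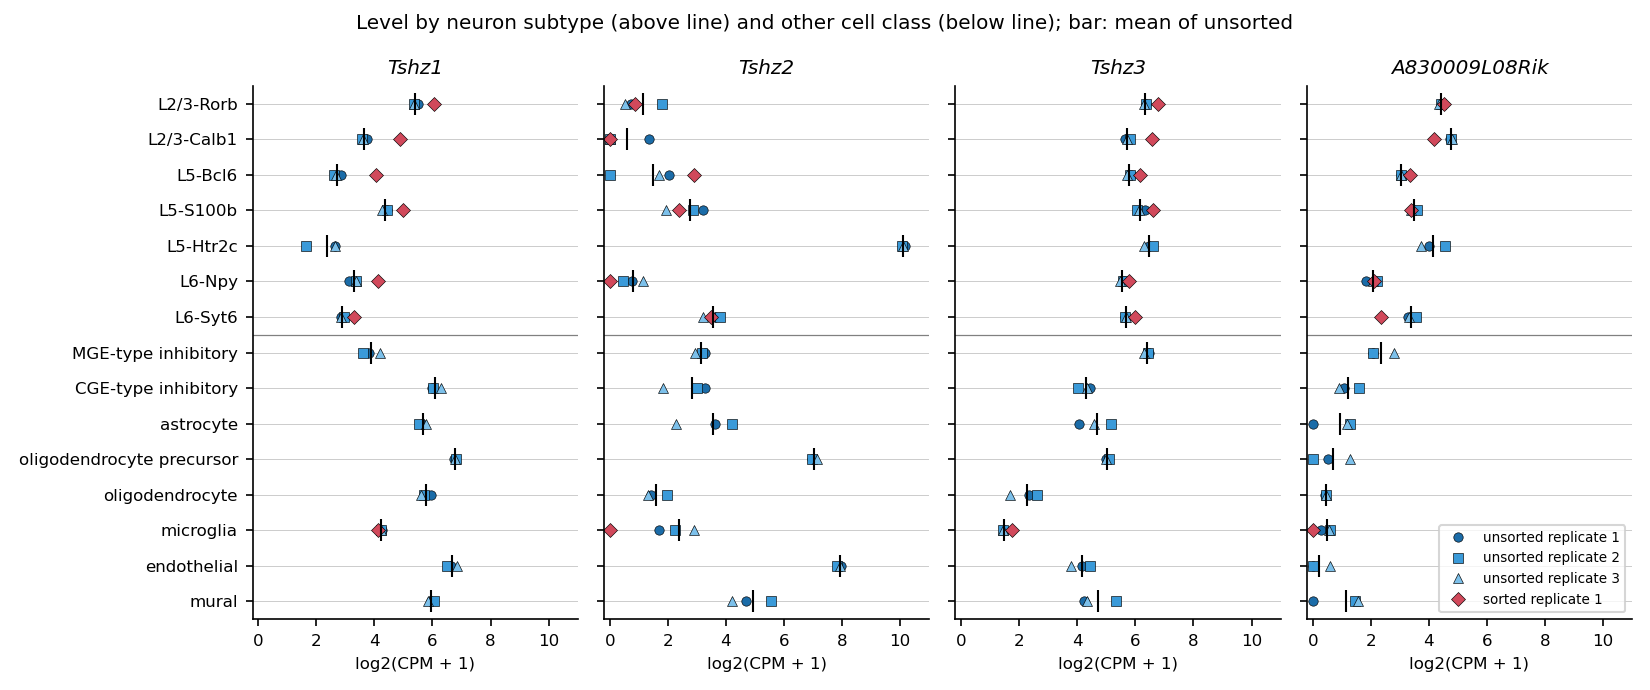
Level of each member, as log2(CPM + 1), in the 7 excitatory subtypes and 8 other cell classes, with 1 point per library and a bar at the mean of the 3 unsorted libraries; groups under 20 cells in a library are not drawn for that library. Tshz2 reaches 1066 to 1154 CPM in L5-Htr2c and stays below 20 CPM in the other subtypes, while Tshz3 is nearly even across subtypes.

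Tshz2 UMIs were also spread unequally among the neurons of a subtype. In L5-Htr2c 316 of 317 unsorted neurons had a Tshz2 UMI, the median neuron had 16 and 264 neurons had 10 or more. In L6-Syt6, over all 4 libraries, 282 of 5092 neurons had a Tshz2 UMI and 111 of these had 1, while 43 neurons with 10 or more held 51.2% of all Tshz2 UMIs of the subtype. In L5-S100b, 4 of 1096 unsorted neurons held 39.8% of the Tshz2 UMIs. A830009L08Rik was held in low numbers per neuron: 666 L6-Syt6 neurons had a UMI of it, 420 of these had 1, and 0 of 5092 had 10 or more.

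**Figure D2:**
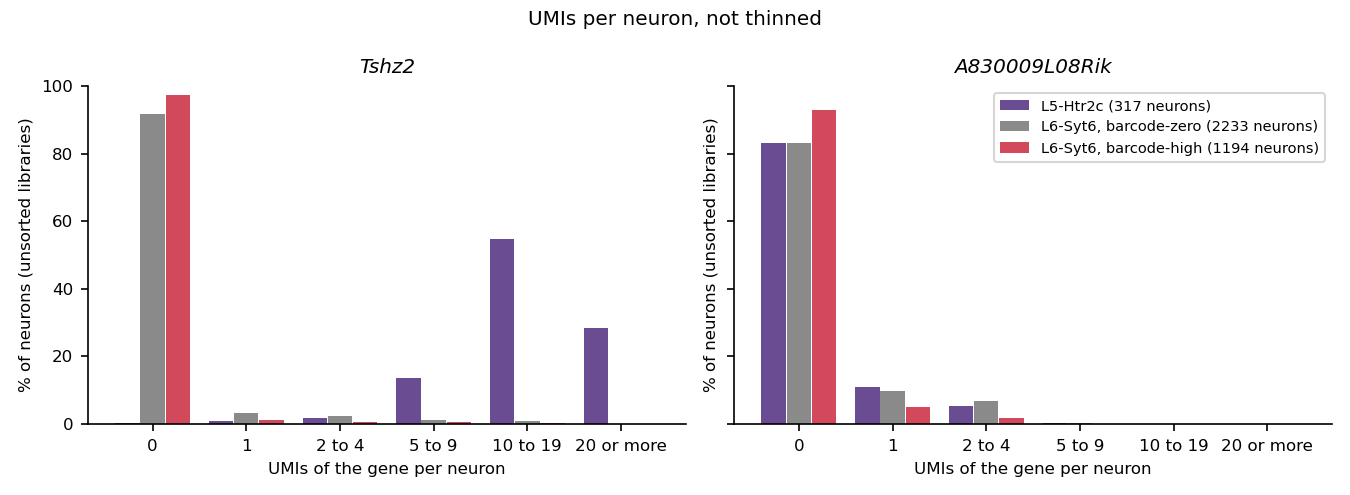
Share of unsorted neurons by the number of Tshz2 or A830009L08Rik UMIs they held, without thinning, for L5-Htr2c and for barcode-zero and barcode-high L6-Syt6 neurons. Of the L6-Syt6 neurons 91.9% (barcode-zero) and 97.3% (barcode-high) had no Tshz2 UMI, whereas 54.9% of L5-Htr2c neurons had 10 to 19.

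Within L6-Syt6, Tshz2 and A830009L08Rik were lower in barcode-high than in barcode-zero neurons of each library, which is the contrast that chose the members. Tshz2 had 15.7, 18.1 and 13.1 CPM in the barcode-zero neurons of unsorted libraries 1, 2 and 3 and 18.9 CPM in those of the sorted library, against 4.78, 5.42, 2.04 and 5.59 CPM in the barcode-high neurons. A830009L08Rik had 11.5, 13.6, 12.2 and 7.80 CPM against 3.75, 4.91, 3.05 and 2.26 CPM. The groups did not overlap for either gene. The edgeR log2 fold changes were −1.85 (SE 0.141) for Tshz2 and −1.64 (SE 0.122) for A830009L08Rik. Of 13436 genes tested, 225 (1.67%) were called in either direction (adjusted p under 0.05, log2 fold change of 0.5 or more in size), and since this contrast chose the members nothing is read from their count. The number called was 29 without unsorted library 2, 75 without the library block and 25 with 1 or more barcode UMIs in place of 5. Over the 4 libraries and without thinning, 187 of 2327 barcode-zero and 40 of 1635 barcode-high neurons had a Tshz2 UMI, and 387 and 108 had one of A830009L08Rik.

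Tshz3 was also lower in the barcode-high neurons of all 4 libraries, by less: 51.8, 51.2, 54.6 and 75.4 CPM against 42.5, 42.1, 42.1 and 57.4 CPM, a log2 fold change of −0.28 (SE 0.0473). Within the unsorted libraries the groups did not overlap, and the sorted barcode-high value lay above the unsorted barcode-zero ones. Tshz1 had 6.58, 6.64, 6.96 and 8.91 CPM against 4.87, 7.26, 4.88 and 8.27 CPM (log2 fold change −0.18, SE 0.137), and unsorted library 2 went the other way.

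Tshz2 levels were ordered along the number of barcode UMIs. Neurons with 1 to 4 barcode UMIs had 11.5, 9.86, 5.54 and 17.3 CPM of Tshz2 in unsorted libraries 1 to 3 and the sorted library, those with 5 to 19 had 5.39, 5.63, 2.66 and 8.58 CPM, and those with 20 or more had 3.37, 4.73, 0.656 and 0.168 CPM. In each library the level was lower in each higher barcode class, although the highest class rests on 11, 11, 2 and 1 Tshz2 UMIs in 3, 3, 2 and 1 neurons. The sorted value at 0 barcode UMIs rests on 51 Tshz2 UMIs in 5 of 94 neurons, and 2 neurons held 86.3% of them. Sorted neurons with 5 or more barcode UMIs held 94 Tshz2 UMIs, 46 of them in 1 neuron. The share of neurons with a Tshz2 UMI, without thinning, was not ordered throughout: it was 3.02% at 5 to 19 and 3.37% at 20 or more barcode UMIs in unsorted library 2, 1.52% and 1.77% in unsorted library 3, and 5.32% at 0 and 5.88% at 1 to 4 in the sorted library. A830009L08Rik stayed near the barcode-zero level at 1 to 4 barcode UMIs (10.1, 12.2, 9.28 and 7.09 CPM) and lay lower at 5 to 19 (3.78, 4.16, 3.69 and 2.12 CPM), with no further order at 20 or more (3.68, 7.32, 1.64 and 2.51 CPM). The median depth of barcode-high neurons was above that of barcode-zero neurons in each library, 24582 against 21684 UMIs in unsorted library 1 and 38604 against 30096 in the sorted library. With every neuron thinned to 10000 UMIs, 5.54% ± 1.45 of barcode-zero and 1.61% ± 0.605 of barcode-high neurons (n = 4 libraries) had a Tshz2 UMI, and 9.05% ± 3.6 and 3.56% ± 0.917 had one of A830009L08Rik.

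**Figure D3:**
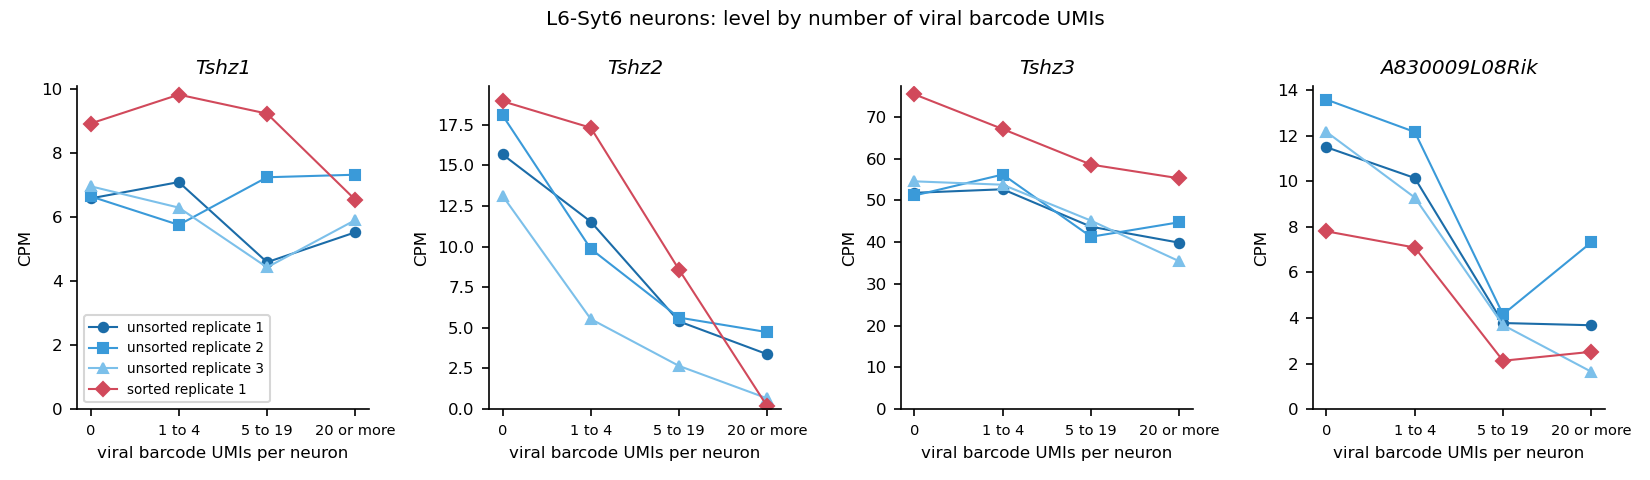
Level in CPM of each member in L6-Syt6 neurons by their number of viral barcode UMIs, 1 line per library, each axis starting at 0. Tshz2 is lower in each higher class of each library, from 13.1 to 18.9 CPM at 0 barcode UMIs to 0.168 to 4.73 CPM at 20 or more, and A830009L08Rik is lower from 5 barcode UMIs on. The sorted Tshz2 value at 0 barcode UMIs rests on 51 UMIs, 86.3% of them in 2 neurons.

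Clustering of all cells divided the L6-Syt6 neurons, and in the pooled counts of the 2 largest clusters both genes were lower in barcode-high neurons. The 2323 neurons of the largest, led by Rprm and Hs3st4, were 20.5% barcode-high and had 12.1 CPM of Tshz2 in barcode-high and 19.5 CPM in barcode-zero neurons, all libraries summed. The next, with 2082 neurons of which 40.0% were barcode-high, had 2.21 against 7.04 CPM, and 496 neurons led by the activity-regulated gene Egr4, 55.9% barcode-high, had a Tshz2 UMI in 1.21% of its neurons. A830009L08Rik had 4.95 against 16.8 CPM in the first, 2.37 against 7.69 in the second and 3.45 against 7.03 in the third. A cluster of 70 neurons led by Cplx3 and Ctgf, genes of layer 6b, had 36.0 against 34.3 CPM of Tshz2 on 8 and 40 neurons. The 10 L6-Syt6 neurons in a near-projecting-like cluster, led by Myl4, Lypd1, Tshz2 and Htr2c, were all barcode-zero and had 836 CPM of Tshz2. Without these 10 neurons the log2 fold change was −1.39 (SE 0.290) for Tshz2 and −1.62 for A830009L08Rik. In the sorted library 92 of 94 barcode-zero neurons remained, and the order of Tshz2 by barcode class was not tested without the cluster. Tshz2 was among the genes clustered, so these values are a description.

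Markers of other cell types were set beside the contrast. The summed near-projecting markers were 103.3 CPM in barcode-zero (90.5 to 127 over libraries) and 105.1 CPM in barcode-high L6-Syt6 neurons (95.5 to 118.7), with Stac of the 8 markers at 0 in both. Most of this sum was Lypd1, at 86.1 and 91.1 CPM, and Trhr had 9.65 and 8.09 CPM, while the median log2 fold change of the 5 markers tested was −0.25, beside −0.004 over all genes. The 5 mural markers summed to 27.5 CPM (24.0 to 35.3) against 9.47 CPM (6.25 to 11.3), mostly Rgs5 at 24.7 and 7.90 CPM, and no mural marker was at 0. The oligodendrocyte precursor and endothelial sums, of the classes with most Tshz2 outside neurons, were 4.13 against 3.51 CPM and 7.48 against 7.98 CPM. The part of the mural difference in the result was not tested.

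In the other subtypes no member was called. Of 20 pairs of a member and a subtype 14 passed the filter on low counts, and edgeR called 0 of them, with 1 at an unadjusted p under 0.05 and a smallest adjusted p of 0.618. DESeq2 called 0, with 0 at an unadjusted p under 0.05 and 2 adjusted p given as NA. The share of all genes tested that edgeR called was 0.142% in L2/3-Rorb, 0.183% in L2/3-Calb1, 0.0659% in L5-Bcl6, 2.64% in L5-S100b and 0.775% in L6-Npy. These comparisons were smaller than that in L6-Syt6, with 33 to 40 barcode-zero L2/3-Rorb neurons and 43 to 74 barcode-zero L5-S100b neurons per unsorted library. The sorted library had 9 barcode-zero L2/3-Calb1 and 5 barcode-zero L5-Bcl6 neurons and did not enter those fits.

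A830009L08Rik in L2/3-Rorb was the pair under an unadjusted 0.05. It had 24.7, 27.6, 39.7 and 16.4 CPM in the barcode-zero neurons of unsorted libraries 1 to 3 and the sorted library and 20.7, 20.7, 13.9 and 24.5 CPM in the barcode-high ones. It was lower in the barcode-high neurons of the 3 unsorted libraries and higher in those of the sorted one, and the groups overlapped. Its edgeR log2 fold change was −0.51 (SE 0.225), with an adjusted p of 0.628. In L5-S100b the values were 8.23, 7.56, 11.6 and 6.95 CPM in barcode-zero and 10.7, 10.9, 8.93 and 9.93 CPM in barcode-high neurons, a log2 fold change of 0.25 (SE 0.261, edgeR adjusted p = 0.693). In L2/3-Calb1, where the gene was highest, it was 0.16 (SE 0.273, edgeR adjusted p = 0.988).

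Tshz2 passed the filter in L5-S100b alone among these subtypes. Barcode-zero neurons had 5.76, 2.16, 12.6 and 1.39 CPM, from 1 to 13 UMIs per library, and barcode-high neurons 7.92, 7.03, 1.70 and 5.93 CPM. Unsorted library 3 was lower in barcode-high neurons and the other libraries were higher. Its log2 fold change stood at −0.04 (SE 0.452, edgeR adjusted p = 0.980), and without unsorted library 3 it was 1.07 (edgeR adjusted p = 0.197).

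Tshz3 had log2 fold changes between 0.02 in L2/3-Rorb (SE 0.111) and 0.30 in L2/3-Calb1 (SE 0.200), none called by edgeR, with adjusted p from 0.735 to 0.986. In L5-Bcl6 it had 55.8, 41.8 and 44.1 CPM in barcode-zero neurons and 56.5, 58.5 and 54.6 CPM in barcode-high neurons of unsorted libraries 1 to 3. All 3 libraries were higher in barcode-high neurons, although the groups overlapped (log2 fold change 0.26, SE 0.200, edgeR adjusted p = 0.887). Tshz1 had log2 fold changes from 0.09 in L2/3-Rorb (SE 0.158) to 0.57 in L2/3-Calb1 (SE 0.437), with edgeR adjusted p from 0.618 to 0.954.

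**Figure D4:**
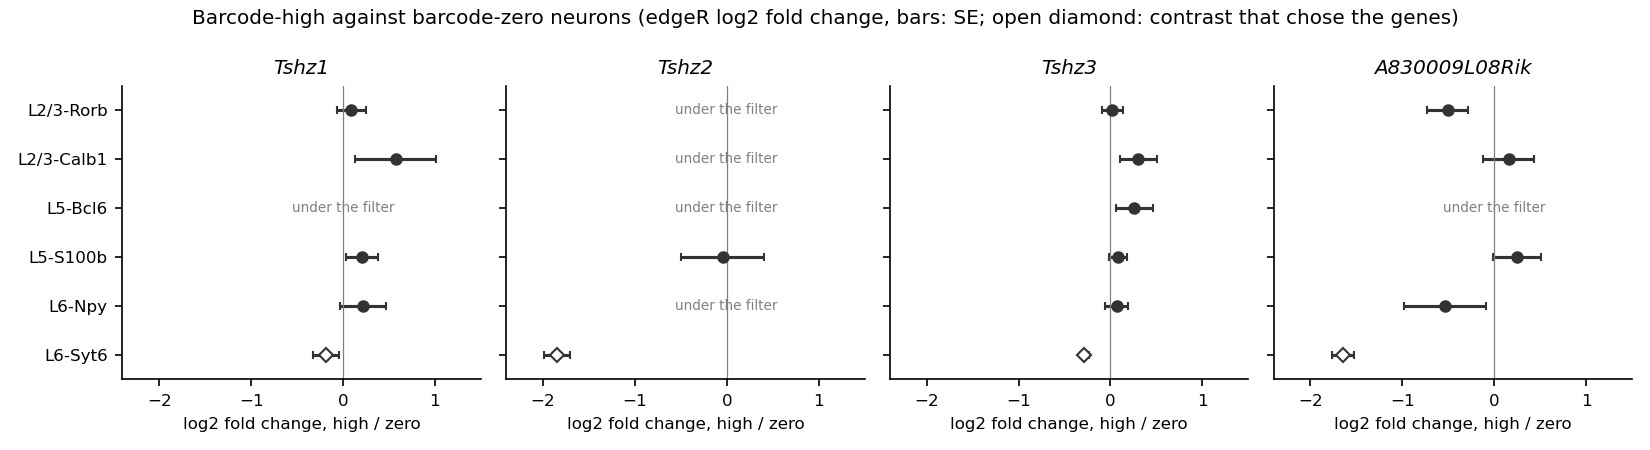
The edgeR log2 fold change of each member between barcode-high and barcode-zero neurons by subtype, with bars of 1 SE; the open diamond is the L6-Syt6 contrast that chose the members, and grey text marks members under the filter on low counts. Outside L6-Syt6 no value was called.

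L5-Htr2c, the subtype with most Tshz2, had 2, 2, 4 and 2 barcode-high neurons in the 4 libraries and could not be tested at 5 or more barcode UMIs. Its neurons with 0 barcode UMIs had 1182, 1099 and 1123 CPM of Tshz2 in unsorted libraries 1 to 3 and those with 1 to 4 had 953, 977 and 1107 CPM. Each library was lower with 1 to 4 barcode UMIs. The mean of A830009L08Rik went the other way, with 25.3 ± 10.8 CPM at 1 to 4 and 15.5 ± 3.96 CPM at 0 barcode UMIs, and the ranges overlapped. With 1 or more barcode UMIs against 0 (14, 14 and 18 against 108, 83 and 80 neurons), Tshz2 had a log2 fold change of −0.22 (SE 0.0766, edgeR adjusted p = 0.631), which was not called although the unadjusted p was under 0.05.

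A second comparison held the barcode group fixed and asked which genes differed between L6-Syt6 neurons with and without Tshz2. Barcode-zero neurons thinned to 10000 UMIs had a Tshz2 UMI in 43 of 728, 53 of 740 and 38 of 698 neurons of unsorted libraries 1 to 3, and the sorted library, with 3 such neurons, was left out. A830009L08Rik was higher on the Tshz2-detected side of each library: 34.9, 35.9 and 23.7 CPM against 14.2, 14.1 and 13.5 CPM, without overlap. This rests on 15, 19 and 9 UMIs of A830009L08Rik on the detected side. This gave a log2 fold change of 1.17 (SE 0.272, edgeR adjusted p = 0.000731), and 9 of 43, 14 of 53 and 8 of 38 Tshz2-detected neurons had a UMI of it, against 69 of 685, 68 of 687 and 67 of 660 undetected ones. The call was lost with DESeq2 (log2 fold change 1.15, adjusted p = 0.0790), without unsorted library 2 (1.05, edgeR adjusted p = 0.0754) and at 5000 UMIs per neuron (0.67, edgeR adjusted p = 0.666). Barcode-zero neurons can include labelled neurons that were missed, and both genes were chosen as low in labelled neurons, so this contrast is not fully apart from the choice of the members, and that part was not tested.

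The other family members did not pass the test on this split. Tshz3 had 55.8, 54.7 and 63.2 CPM in Tshz2-detected and 52.0, 52.3 and 53.0 CPM in undetected neurons, and the detected side was higher in all 3 libraries by a log2 fold change of 0.11 (SE 0.179, edgeR adjusted p = 0.851). Tshz1 had 4.65, 13.2 and 7.90 CPM, from 2 to 7 UMIs per library, against 7.30, 6.55 and 6.97 CPM, a log2 fold change of 0.33 (SE 0.491, edgeR adjusted p = 0.821). Of 11409 genes tested on this split 462 (4.05%) were called, 239 higher and 223 lower in Tshz2-detected neurons, beside 1 of the 3 members tested. Barcode-high neurons had 8, 9, 4 and 5 Tshz2-detected neurons in the 4 libraries and could not be tested.

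Among the deep-layer transcription factors, 13 of 14 were tested on the split, and 3 rose and 2 fell in Tshz2-detected neurons. The median log2 fold change of the list was −0.05, beside −0.002 over all genes tested. Etv1, an ETS factor of layer 5 projection neurons, had 259 ± 52.1 CPM against 41.6 ± 1.76 CPM (log2 fold change 2.58, SE 0.117, edgeR adjusted p = 8.42e-103). Fezf2, which specifies subcortical projection neurons, rose by 0.77 on the log2 scale. Nfia, a nuclear factor I gene, had 73.4 ± 8.98 CPM against 207.7 ± 4.02 CPM (log2 fold change −1.54, edgeR adjusted p = 2.56e-27), and Foxp2, a forkhead factor of corticothalamic neurons, fell by 0.76. Etv1, Nfia, Fezf2 and Foxp2 were called in all 9 alternative settings, in which 2 to 4 of the list were called higher and 2 to 3 lower.

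All 3 near-projecting markers tested of 8 rose in the Tshz2-detected neurons. Vwc2l rose by 2.08 on the log2 scale (16 ± 4.81 against 3.58 ± 0.946 CPM), Trhr, the receptor of thyrotropin-releasing hormone, by 1.33, and Lypd1 by 0.79, with a list median of 1.33. That median was 0.701 without unsorted library 1 and 1.14 at 5000 UMIs per neuron, with 1 of the 3 called in each. Vwc2l, Trhr and Lypd1 were called in 7, 5 and 8 of the 9 alternative settings. Lypd1 was not confined to L5-Htr2c (1809 CPM), with 764 CPM in L5-Bcl6 and 559 CPM in L2/3-Calb1. The markers under the filter had few counts on both sides. In detected against undetected neurons Htr2c had 1.89 against 0.988 CPM and Slc17a8 1.26 against 0.198 CPM. Rapgef3 had 0.629 against 0.538 CPM, Sla2 0 against 0.400 CPM, and Stac 0 on both sides. Of the 9 corticothalamic markers 4 were called lower, namely Ntsr1 (log2 fold change −1.51), Foxp2, Sulf1 (−0.73) and Rprm (−0.55, 793 ± 142 against 1140 ± 35.0 CPM). The list median was −0.26, and Ntsr1, Sulf1 and Rprm were called in 3, 6 and 7 of the 9 settings. Tle4 rose by 0.28 (334.5 against 270 CPM, edgeR adjusted p = 0.0203), under the fold limit. Zfpm2 and Hs3st4 rose by 0.21 and 0.06, and Syt6 and Crym fell by 0.26 and 0.08, none of them called. Of the 9 zinc finger homeobox genes tested of 11, Zhx1 fell by 0.75 and was called in 5 of the 9 settings. The 6 corepressor and partner genes, among them Ctbp1, Ctbp2, Hdac1 and Hdac2, held 0 calls by edgeR and 1 gene at an unadjusted p under 0.05, and the 4 layer 6b markers tested held 0 calls and 2 such genes. With 2 or more Tshz2 UMIs on the detected side, 1 of the 6 corepressor and partner genes was called lower.

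Over all genes, the 5 called highest in Tshz2-detected neurons with 1 direction in every library were Sostdc1, a BMP and Wnt antagonist (82.6 ± 15.3 against 0.941 ± 0.367 CPM, log2 fold change 6.39), Gdf10, a TGF-beta family ligand (10.2 ± 3.13 against 0.0990 CPM), the histamine receptor Hrh2 (6.84 against 0.294 CPM), the proteoglycan gene Vcan (14.1 against 0.695 CPM) and the arginase gene Arg1 (7.43 against 0.340 CPM). The last 4 had 9 to 18 UMIs on the detected side, and Gdf10, Hrh2 and Arg1 passed the filter in only 4, 3 and 3 of the 9 alternative settings. The 5 lowest had 0 UMIs on the detected side. Inpp4b, a phosphoinositide phosphatase, was at least 4.48-fold lower, Defb1, a defensin, at least 3.74-fold, Pcp4l1 at least 2.53-fold, Wnt5a at least 2.37-fold and Pdlim1 at least 2.11-fold, each against a floor of 3 counts over the 3 libraries. They were called in 8, 6, 4, 3 and 3 of the 9 alternative settings.

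**Figure D5:**
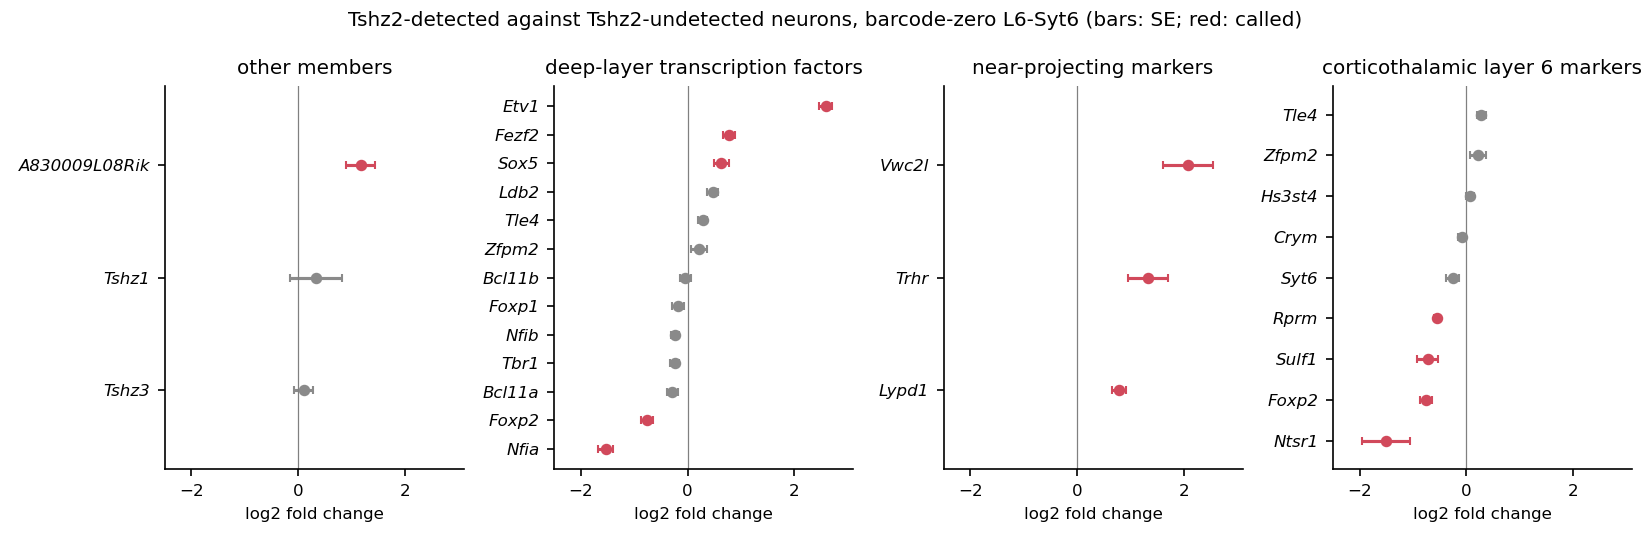
The edgeR log2 fold change between Tshz2-detected and Tshz2-undetected barcode-zero L6-Syt6 neurons for the other members and the tested genes of 3 lists, with bars of 1 SE; red marks genes called (adjusted p under 0.05, log2 fold change of 0.5 or more in size). A830009L08Rik stands at 1.17, Etv1 at 2.58 and Nfia at −1.54.

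Markers of other classes moved with this split. The 8 near-projecting markers summed to 166.5 CPM (113.2 to 207.0) in Tshz2-detected and 86.3 CPM (85.0 to 87.6) in undetected neurons, and the 9 corticothalamic markers to 2333 against 2733 CPM. The mural sum was 59.9 against 23.8 CPM, mostly Rgs5 at 52.8 and 20.4 CPM, and the oligodendrocyte sum 103.3 against 50.6 CPM. The oligodendrocyte precursor sum was 18.6 CPM (13.2 to 26.3) against 4.38 CPM, of which Vcan made 14.1 CPM, while Pdgfra, Cspg4, Olig1 and Olig2 had 0.775 to 1.40 CPM. The endothelial sum was 9.08 against 8.52 CPM. On the detected side 1 mural, 2 oligodendrocyte, 1 endothelial and 0 oligodendrocyte precursor markers of 5 each were at 0, and 2 of the near-projecting list. No doublet caller was run, and the part of these cells in the split was not tested. Without the near-projecting-like cluster A830009L08Rik kept a log2 fold change of 1.19 (edgeR adjusted p = 0.00126).

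The same lists were counted in the barcode contrasts. In L2/3-Rorb Etv1 rose by 0.83 and Lypd1 by 0.55 on the log2 scale in barcode-high neurons, while in L2/3-Calb1 Lypd1 fell by 0.62, beside 0.142% and 0.183% of all genes called. In L2/3-Rorb DESeq2 and the fit without the library block each called 0 genes. In L5-S100b 2 of the 14 deep-layer factors rose and 3 fell, among them Nfia (−0.77), Bcl11b (−0.71), Nfib (−0.58) and Fezf2 (0.55), and of the corticothalamic markers Ntsr1 fell by 1.02 and Rprm rose by 1.01, so that 5 of 14 and 2 of 9 were called beside 2.64% of all genes. Rprm rose by 0.83 in L6-Npy, where 0.775% of all genes were called and 0 without the library block. In L6-Syt6, with 1.67% of all genes called, the values are descriptions from which nothing is read: Etv1, which was higher on the Tshz2-detected side, had a log2 fold change of −0.52, and 4 of 5 layer 6b markers were called lower, Moxd1 (−3.29), Cplx3 (−1.61), Svil (−1.53) and Nxph4 (−0.86). The zinc finger homeobox and corepressor lists held 0 calls by edgeR in each of the 6 barcode contrasts, with 0 to 2 and 0 to 3 genes at an unadjusted p under 0.05.

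Across the 27 sums of a library and a subtype with 20 or more neurons, the genes most like Tshz2 in log2(CPM + 1), of 10519 with a mean of 5 CPM or more, were Stard5 (Pearson r 0.96), Kif2a (0.946), Tfg (0.936), AW551984 (0.931) and Trh, the precursor of thyrotropin-releasing hormone (0.924). For A830009L08Rik they were Pou3f3 (0.906) and Cux1 (0.869), transcription factors found in upper-layer neurons, Aqp11 (0.860), Ift20 (0.855) and Pantr1 (0.853). Tshz2 and A830009L08Rik themselves had an r of 0.138, and Tshz1 and Tshz2 one of −0.51. Stard5, AW551984 and Trh had 61.2, 48.8 and 77.5 CPM in L5-Htr2c and at most 2.51 CPM in each other subtype (unsorted means). They passed the filter of 5 CPM through the subtype where Tshz2 was highest, so nothing is read from their r. The 27 sums share 4 libraries, their depth and the subtypes, so all of these values are descriptions.

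In the sorted library Tshz1 and Tshz3 were above every unsorted library in all 6 subtypes with 20 or more sorted neurons, which 27.4% of 9336 genes also were. The log2 difference between the sorted library and the unsorted mean was 0.41 to 1.35 for Tshz1 and 0.22 to 0.84 for Tshz3, beside a median of 0.08 to 0.14 over all genes. Tshz2 was above the unsorted libraries in 1 subtype, L5-Bcl6, where its 13 UMIs came from 1 of 67 neurons, and below their mean in the other 5. A830009L08Rik in L6-Syt6 had 4.14 CPM in the sorted library against 8.79 to 10.7 CPM in the unsorted ones, a log2 difference of −1.03. Of the 773 sorted L6-Syt6 neurons 441 were barcode-high and 94 barcode-zero. Unsorted libraries 1, 2 and 3 had 431 and 749 of 1511, 387 and 766 of 1426, and 376 and 718 of 1382. The gene was chosen as low in barcode-high neurons, so this difference is not apart from the choice of the members. The single sorted library allows no test, and sorting, depth, mice and the share of barcode-high neurons cannot be told apart in it.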

How the data were processed

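The authors aligned the 10x reads to mm10 with the viral barcodes added and deposited UMI counts per gene and cell from Cell Ranger, with a subtype for each excitatory neuron, which they named by hand after filtering in Seurat 3.1.4 and Leiden clustering in Scanpy. The deposited counts were used as whole numbers. Levels are CPM of counts summed per library and group, with the viral feature left out. Cells with 500 to 8000 genes, 1000 to 60000 UMIs and at most 20% mitochondrial UMIs were clustered anew (2000 variable genes, 30 components, 15 neighbours, Leiden resolution 1) into 44 clusters, of which 16 (1232 cells) stayed unnamed. Other classes were named "like" from at least 3 fixed markers. No doublet caller was run.

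Contrasts used edgeR 4.0.16 in R 4.3.3 (quasi-likelihood test, TMM, filterByExpr, library as a block, Benjamini-Hochberg over all genes), with at least 10 neurons per side and library and at least 3 libraries. Genes were called where the adjusted p was under 0.05 and the log2 fold change was 0.5 or more in size. DESeq2 1.42.0 was the alternative tool. Thinning drew 10000 UMIs per neuron (9098 neurons were deep enough) or 2000 per cell (20128 cells). Both sides of a contrast came from the same library, which is the pairing. Deviations from the group means correlated between the sides of a library at −0.050 to 0.852 over contrasts. The fits were tested on simulated data.

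The members and gene lists were chosen with earlier results of these data known. The genes named were the members, at most 4 called genes per list and contrast with the largest absolute fold change, the 5 genes most like Tshz2 and A830009L08Rik over subtypes, and the 5 highest and 5 lowest called on the Tshz2 split that moved one way in every library. The mice are separate animals, except in the sorted pool of 3.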

Additional observations from a re-analysis of the deposited data

Results flagged for a closer look

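Tshz3 was flagged because its barcode contrast had opposite directions in a pair of subtypes: it was higher in barcode-high neurons of all 3 libraries in L5-Bcl6 (mean log2 difference 0.27) and lower in those of all 4 libraries in L6-Syt6 (−0.33), a difference of 0.593 on the log2 scale. This difference was not tested, the L6-Syt6 contrast is the one that chose the members, and the L5-Bcl6 value rests on 19 to 22 barcode-zero neurons per library.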

How the results depend on the processing

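Of the tested members, A830009L08Rik on the Tshz2 split was the only call, with log2 fold changes of 0.67 to 1.39 over the alternatives and 1.05 to 1.30 when 1 library was left out. It was lost with DESeq2 (1.15), without unsorted library 2 (1.05) and at 5000 UMIs per neuron (0.67). Uncalled values that changed sign were Tshz2 in L5-S100b (0.36 with DESeq2, 0.52 thinned, −0.42 to 1.07 leaving out a library), A830009L08Rik in L5-S100b (−0.31 thinned), Tshz1 (−0.12 thinned) and Tshz3 (−0.030 thinned) in L6-Npy, and, leaving out 1 library, Tshz1 in L2/3-Rorb (−0.088 without the sorted library to 0.21), Tshz3 in L2/3-Rorb (−0.033 without unsorted library 3 and −0.0082 without the sorted one, to 0.075) and in L6-Npy (−0.086 without unsorted library 3 to 0.18), A830009L08Rik in L2/3-Calb1 (−0.19 without unsorted library 1 to 0.35) and Tshz1 on the split (−0.25 without unsorted library 2 to 0.67). The causes were not tested.

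In L6-Syt6, 1 or more barcode UMIs instead of 5 gave log2 fold changes of −1.29 for Tshz2, −0.16 for Tshz3 and −0.92 for A830009L08Rik, and leaving out the near-projecting-like cluster, chosen after seeing the data, gave −1.39 for Tshz2. Without the library block no call of a tested member changed (A830009L08Rik on the split 1.18). In L6-Syt6, the contrast that chose the members, the Tshz2 log2 fold change was then −1.79, given as a description. The genes called without the block went from 15 to 0 in L2/3-Rorb, 6 to 1 in L5-Bcl6, 318 to 56 in L5-S100b, 84 to 0 in L6-Npy and 225 to 75 in L6-Syt6. DESeq2 called 0, 2, 0, 144 and 11 genes in L2/3-Rorb, L2/3-Calb1, L5-Bcl6, L5-S100b and L6-Npy, against 15, 16, 6, 318 and 84 by edgeR, and 183 against 462 on the split. Thinning to 10000 UMIs left 10 in L2/3-Calb1, 3 in L5-Bcl6 and 174 in L5-S100b, and 1 or more barcode UMIs left 9, 4, 0, 202 and 27 in these 5 subtypes and 25 in L6-Syt6. Without the filter 28, 32 and 22 were called in L2/3-Rorb, L2/3-Calb1 and L5-Bcl6, and the split at 5000 UMIs held 230. Leaving out 1 library gave 3 to 35 calls in L2/3-Rorb, 12 to 26 in L2/3-Calb1, 4 to 31 in L5-Bcl6, 180 to 285 in L5-S100b, 46 to 75 in L6-Npy, 29 (without unsorted library 2) to 325 in L6-Syt6 and 299 to 332 on the split. Tshz2 was under the filter in 4 subtypes, in 6 settings a member did not pass it, and DESeq2 gave 2 adjusted p as NA. Levels moved by at least 1 SD in 14 of 240 comparisons. Averaging cells instead of summing them gave 0.353 to 1.46 times the level where it was 5 CPM or more, lowest for Tshz3 in astrocyte-like cells (8.68 against 24.6 CPM).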

Other observations

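Barcode-high L6-Syt6 neurons had too few Tshz2-detected neurons for a test. After thinning to 10000 UMIs, 1 of 8, 2 of 9, 0 of 4 and 1 of 5 Tshz2-detected barcode-high neurons of unsorted libraries 1 to 3 and the sorted library had a UMI of A830009L08Rik, against 14 of 419, 15 of 377, 15 of 370 and 9 of 431 undetected ones. The share 0 of 4 says little at this number. In barcode-zero neurons of the sorted library it was 0 of 3 against 3 of 79.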
